A study of Mus musculus with 30 samples.

Results

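Zfy1 and Zfy2 are the pair of Y-linked zinc finger genes of the mouse. Their rows were found by symbol in GENCODE M21 and make up 2 of the 65534 genes and loci in the deposited table. Zfy1 is ENSMUSG00000053211 (chromosome Y, 725128 to 797409, minus strand, GRCm38) and Zfy2 is ENSMUSG00000000103 (chromosome Y, 2106015 to 2170409, minus strand). The pair was picked because both genes were already known to be higher in Prdm9 -/- than in non-mutant germ cells at 16 days post partum (dpp). That difference, and the steps that lead to the 16 dpp libraries, are therefore given as a description without a test. The tests on the pair below compare the 8 and 12 dpp libraries, or heterozygotes with wild-type libraries. They are not free of the 16 dpp values. The limma fit of 8 and 12 dpp also held the 16 dpp libraries, which enter the spread of each row. The heterozygote comparison includes the non-mutants of 16 dpp.

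The study sequenced polyadenylated RNA of germ cells enriched from testes of male mice, C57BL/6J with less than 10% 129S1/SvImJ. Prdm9 encodes the meiotic histone methyltransferase that marks the sites of recombination, and spermatocytes without it fail to complete chromosome pairing. The Prdm9 -/- animals, called mutants, gave 5 libraries each at 8, 12 and 16 dpp. The non-mutants were 2 Prdm9 +/- and 3 Prdm9 +/+ libraries at 8 dpp, 4 and 1 at 12 dpp, and 3 and 2 at 16 dpp. By a number in the column names, read here as the litter, the 30 libraries came from 14 litters. They form 15 pairs of a mutant and a non-mutant litter mate, matched by consecutive library numbers. The sample titles do not name litters or pairs. The labels do not say whether each library came from 1 animal, so the p-values measure the spread between these libraries. The enrichment leaves a mixture of germ cells with some somatic cells. As the first wave of spermatogenesis is roughly synchronous, age changes which germ cell stages are in the mixture. Values are TPM, transcript abundances scaled to transcript length and to a fixed library total, as the authors estimated them to 2 decimals. The depth of each library is unknown.

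ZFY1 and ZFY2 are zinc finger proteins that bind DNA and activate transcription. The X and Y chromosomes are normally silenced when mouse spermatocytes enter pachytene, in a process called meiotic sex chromosome inactivation. Zfy1 and Zfy2 expressed at that stage trigger the death of mouse spermatocytes in mid-pachytene, which made the pair the best known effectors of arrest when this silencing fails. Zfx is their X-linked homolog and is expressed in many cell types. Zfa-ps, a copy of Zfx on an autosome without introns, is annotated as a pseudogene.

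The regions around the starts of both genes are shown because the genes moved together in these libraries while their start regions have little sequence in common. They are the RefSeq windows of GRCm38.p6, 250 bases before to 50 after the start, written on the strand of the gene. Zfy1 lies at chrY:797360-797659 and Zfy2 at chrY:2170360-2170659. Capitals mark the matches to 3 motifs, whose letters were chosen with the sequences in view.
Zfy1: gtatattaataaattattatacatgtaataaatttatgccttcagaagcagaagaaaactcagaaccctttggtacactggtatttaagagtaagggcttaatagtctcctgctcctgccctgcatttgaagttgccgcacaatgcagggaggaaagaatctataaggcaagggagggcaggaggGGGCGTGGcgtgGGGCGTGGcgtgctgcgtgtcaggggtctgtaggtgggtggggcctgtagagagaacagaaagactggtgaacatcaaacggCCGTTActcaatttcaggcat
Zfy2: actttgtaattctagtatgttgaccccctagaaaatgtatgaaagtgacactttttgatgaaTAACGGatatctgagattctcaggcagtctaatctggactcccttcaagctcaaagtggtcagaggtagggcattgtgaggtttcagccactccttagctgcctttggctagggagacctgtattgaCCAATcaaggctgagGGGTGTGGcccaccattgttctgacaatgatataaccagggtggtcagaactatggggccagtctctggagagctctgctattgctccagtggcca
The longest run of letters shared by the windows on this strand is 7 bases. Their GC content is 47.7% for Zfy1 and 47.3% for Zfy2, against a median of 52.7% over 32851 windows of that length. Both windows hold 1 match to the MYB motif TAACNG, on the opposite strand in Zfy1 (CCGTTA) and on the gene's own strand in Zfy2 (TAACGG). A match to that motif on either strand occurs in 23.3% of all windows. The GC-rich KLF motif GGGNGTGG matched at 2 places in Zfy1 and at 1 in Zfy2, and is present in 17.6% of all windows. The CCAAT box (CCAAT) is in the Zfy2 window and in 37.4% of all windows. Neither window contains the GC box GGGCGG, the TATA letters TATAAA or the CRE letters TGACG, which occur in 35.7%, 13.6% and 20.8% of windows. These are matches of letters on both strands, not measured binding sites, and none of these motif searches overlaps another match in the windows.

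Unlike the start regions, the transcribed parts of the genes are close copies. The longest open reading frames are 2349 bases in Zfy1 and 2334 in Zfy2, and 97.4% of their 2331 aligned bases are identical. Against the Zfx reading frame the identity is 79.4% for Zfy1 and 79.3% for Zfy2. Of all 50-base windows in the Zfy1 transcripts, 42.8% also occur in a Zfy2 transcript, and 40.2% of the Zfy2 windows occur in Zfy1. With windows of 100 bases the shares are 26.7% for Zfy1 and 25.4% for Zfy2. No window of 50 bases is shared with Zfx or Zfa-ps. A read from a shared stretch can be assigned to either copy, so the split of the level between Zfy1 and Zfy2 is an estimate and their sum is the firmer value.

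At 16 dpp Zfy1 stood at 11.73, 17.02, 8.31, 12.37 and 12.83 TPM in mutants. In non-mutants it stood at 5.39, 5.56 and 5.37 TPM in the +/- libraries and at 4.99 and 5.55 TPM in the +/+ libraries. All 5 mutants lay above all 5 non-mutants. The mean was 12.5 ± 3.11 TPM in mutants and 5.37 ± 0.231 TPM in non-mutants (SD, n = 5 each), a ratio of means of 2.32. On the log2(TPM + 1) scale, which understates changes of low values, the difference was 1.05 (SE 0.19). The non-mutant values lay close together, and most of the spread at this age was among mutants.

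Zfy2 had 15.05, 24.08, 9.56, 15.18 and 19.04 TPM in mutants at 16 dpp. Non-mutants had 6.73, 6.54 and 6.12 TPM in the +/- libraries and 5.34 and 4.95 TPM in the +/+ libraries. Here too the groups did not overlap, and the same mutant library, replicate 2, was the highest for both genes while replicate 3 was the lowest. The mean was 16.6 ± 5.38 TPM in mutants and 5.94 ± 0.767 TPM in non-mutants (SD, n = 5 each), a ratio of 2.79 and a log2 difference of 1.29 (SE 0.25). Over the table, limma called 3.26% of 20021 rows at this age, 0.509% higher and 2.75% lower in mutants. That background is given beside the pair but is not read against it, since this contrast chose the genes. Summed, the copies reached 29.03 ± 8.45 TPM in mutants and 11.3 ± 0.856 TPM in non-mutants, a ratio of 2.57.

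**Figure D1:**
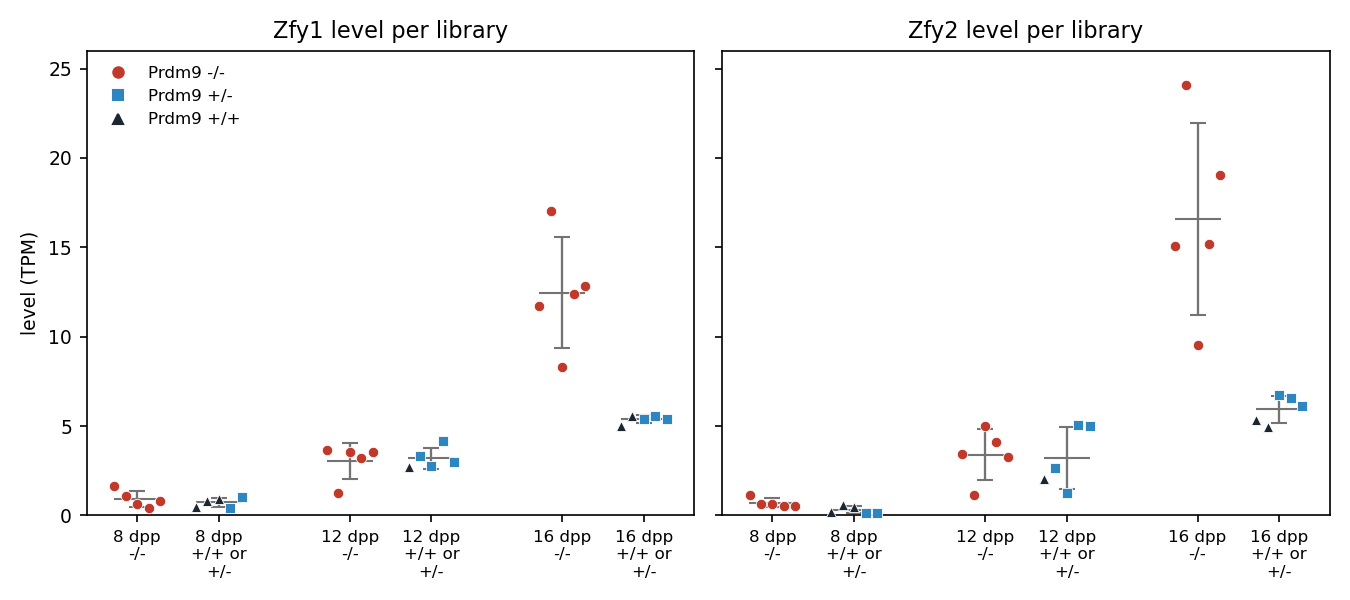
Level of Zfy1 (left) and Zfy2 (right) in TPM in each of the 30 libraries, by age and Prdm9 genotype; the grey line and bar give the mean and SD of each group of 5. At 16 dpp the mutants lie between 8.31 and 17.02 TPM for Zfy1 and between 9.56 and 24.08 TPM for Zfy2, above all non-mutants, while the groups overlap at 12 dpp.

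The difference at 16 dpp was present in every pair of litter mates. The summed level was 41.1 TPM in a mutant and 10.33 TPM in its +/+ litter mate in the widest pair, a ratio of 3.98. In the narrowest pair it was 17.87 TPM in the mutant and 10.5 TPM in its +/+ litter mate, a ratio of 1.70. The ratio of mutant to non-mutant litter mate was 1.497 to 3.41 for Zfy1, with a median of 2.22. For Zfy2 it was 1.93 to 4.51, with a median of 2.32. In a bulk sample, more cells that express a gene and more RNA per cell cannot be told apart.

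**Figure D2:**
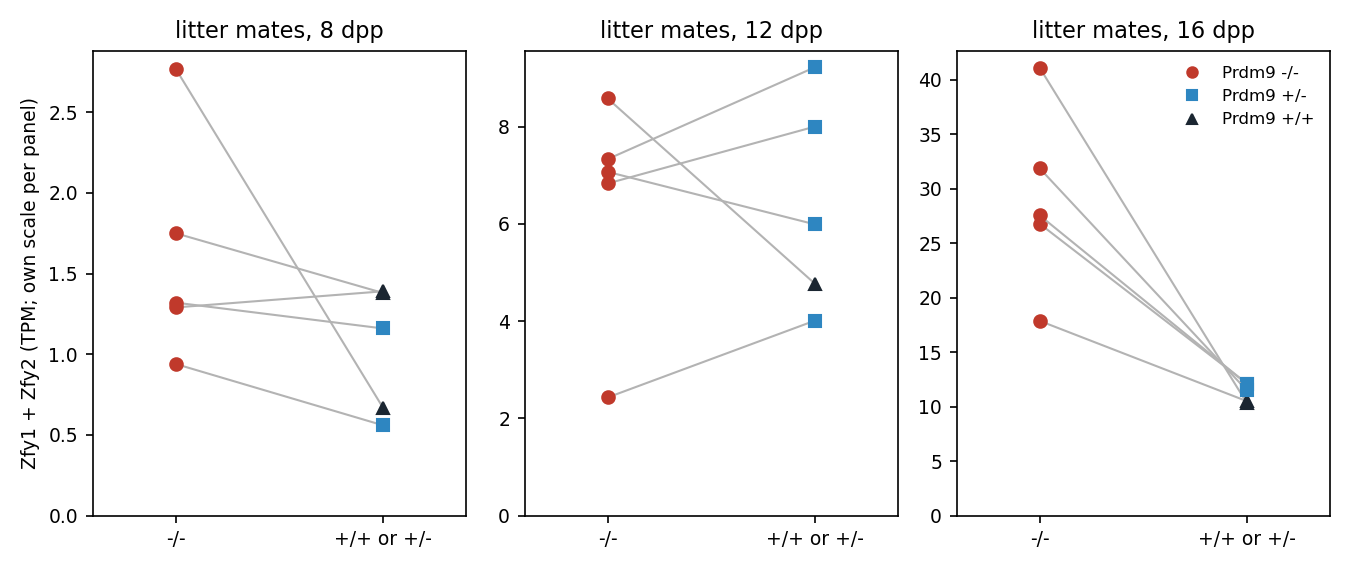
Summed level of Zfy1 and Zfy2 (TPM) in pairs of litter mates, the Prdm9 -/- library on the left and its +/+ or +/- litter mate on the right of each panel, with 5 pairs at each age and an axis of its own for each age. All lines fall to the right at 16 dpp, whereas the mutant is the higher one in 2 of 5 pairs at 12 dpp and in 4 of 5 at 8 dpp.

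At 12 dpp no difference between the genotypes passed the test. Zfy1 stood at 3.64, 1.27, 3.56, 3.2 and 3.57 TPM in mutants, against 3.32, 2.74, 4.16 and 2.99 TPM in +/- and 2.73 TPM in +/+ libraries. Zfy2 stood at 3.43, 1.16, 5.02, 4.13 and 3.26 TPM in mutants, against 2.67, 1.27, 5.06 and 5.01 TPM in +/- and 2.04 TPM in +/+ libraries. The groups overlapped for both genes, and mutant replicate 2 and its +/- litter mate, replicate 2, were the lowest of their groups for Zfy2. The log2 difference between mutants and non-mutants was -0.086 (SE 0.19) for Zfy1 and 0.090 (SE 0.25) for Zfy2. Both had an adjusted p of 1 by limma with Benjamini-Hochberg adjustment over all rows, and limma called 0% of rows at this age, with 225 of 20021 at an unadjusted p under 0.05. The summed level averaged 6.45 ± 2.35 TPM in mutants and 6.398 ± 2.18 TPM in non-mutants (SD, n = 5 each; two-sided exact permutation test, p = 0.976, adjusted p = 0.976 over 8 such tests). The sign of these small differences turned without single libraries: without mutant replicate 2 the Zfy1 difference was 0.11. For Zfy2 it was -0.11 without +/- replicate 2, -0.043 without mutant replicate 3 and -0.0017 without the +/+ library.

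The label check bears on this age. Prdm9 averaged 10.01 ± 2.14 TPM in mutants and 25.05 ± 5.80 TPM in non-mutants at 16 dpp (SD, n = 5 each), and 9.52 ± 5.47 TPM and 18.04 ± 5.64 TPM at 12 dpp. At 8 dpp it averaged 7.23 ± 1.57 TPM in mutants and 4.802 ± 1.70 TPM in non-mutants, and the mutant had more Prdm9 than its litter mate in 4 of 5 pairs, up to 7.38 TPM in a mutant against 1.82 TPM in its +/+ litter mate. Prdm9 thus did not bear out the genotype labels at 8 dpp, and the results at that age rest on the labels alone. In 1 pair of litter mates at 12 dpp the library labelled -/- (replicate 5) had 19.23 TPM of Prdm9 and the library labelled +/- (replicate 4) had 9.16 TPM, against their labels. Their Zfy1 levels were 3.57 and 2.99 TPM in that order, and their Zfy2 levels 3.26 and 5.01 TPM. Without this pair the sum still did not pass the exact test at 12 dpp, and the calls by limma on the step from 8 to 12 dpp were kept. With all libraries Prdm9 itself was not called by limma at 12 dpp (log2 difference -0.91, SE 0.26, unadjusted p = 0.00179). It was called without this pair (-1.39, limma adjusted p = 0.0310), but the pair was left out for its Prdm9 values. The lack of calls at 12 dpp thus does not show that the genotypes were alike.

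At 8 dpp both genes were near the bottom of the measured range. Zfy1 stood at 1.64, 1.1, 0.65, 0.43 and 0.78 TPM in mutants, against 0.42 and 1.0 TPM in +/- and 0.47, 0.82 and 0.93 TPM in +/+ libraries. Zfy2 stood at 1.13, 0.65, 0.64, 0.51 and 0.54 TPM in mutants, against 0.14 and 0.16 TPM in +/- and 0.2, 0.56 and 0.46 TPM in +/+ libraries. The Zfy1 groups overlapped, and for Zfy2 the highest +/+ library exceeded 2 mutants. In each of the 5 pairs the mutant had more Zfy2 than its litter mate, with ratios of 1.16 to 5.65, whereas for Zfy1 this held in 3 of 5 pairs. The log2 difference was 0.13 (SE 0.19) for Zfy1 and 0.38 (SE 0.25) for Zfy2, both with an adjusted p of 1 by limma. The unadjusted p for Zfy2 was 0.143, and limma called 0% of rows at this age, with 417 of 20021 at an unadjusted p under 0.05. The summed level averaged 1.61 ± 0.707 TPM in mutants and 1.03 ± 0.394 TPM in non-mutants (SD, n = 5 each; two-sided exact permutation test, p = 0.135, adjusted p = 0.180).

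Both genes rose between 8 and 12 dpp, in mutants and in non-mutants. In mutants the log2 change was 1.06 (SE 0.19) for Zfy1, with an adjusted p of 7.211e-05 by limma, and 1.31 (SE 0.25) for Zfy2, with an adjusted p of 0.000204. Limma called 29.7% of all rows in that step, 17.5% of them as higher, so a call alone is common there. In non-mutants the change was 1.28 (SE 0.19) for Zfy1 (limma adjusted p = 6.072e-06) and 1.60 (SE 0.25) for Zfy2 (limma adjusted p = 1.71e-05), with 32.5% of rows called and 20.3% called higher. The median change of all rows was 0.059 in mutants and 0.093 in non-mutants. As ratios of mean TPM at 12 over 8 dpp, Zfy1 changed 3.31-fold in mutants and 4.38-fold in non-mutants, and Zfy2 changed 4.90-fold in mutants and 10.6-fold in non-mutants. The last ratio rests on a mean of 0.304 TPM at 8 dpp. With +/+ libraries alone, 1 library at 12 against 3 at 8 dpp, the steps were 1.11 for Zfy1 (limma adjusted p = 0.0586) and 1.12 for Zfy2 (limma adjusted p = 0.158) and no longer passed.

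The early rise was not shown to differ between genotypes. The step in mutants minus the step in non-mutants was -0.22 (SE 0.26) for Zfy1 and -0.29 (SE 0.36) for Zfy2, both with an adjusted p of 1 by limma. No row was called for this difference (0%), and 367 of 20021 had an unadjusted p under 0.05. The sum of both genes was higher at 12 than at 8 dpp by 4.83 TPM in mutants (two-sided exact permutation test, p = 0.0159, adjusted p = 0.0423) and by 5.37 TPM in non-mutants (exact p = 0.00794, adjusted p = 0.0423). The second p is the smallest that 252 splits of 5 against 5 libraries allow. Both calls on the sum were lost without any one of 7 libraries of 8 dpp, named below for the Zfy2 share, where the adjusted p became 0.0635. Leaving out a library also raises the smallest p the test can give. The limma calls on the single genes were kept without any one of the 30 libraries.

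From 12 to 16 dpp the genotypes parted. In mutants Zfy1 was 4.09 times and Zfy2 4.88 times as high at 16 as at 12 dpp, by ratios of mean TPM. In non-mutants these ratios were 1.69 for Zfy1 and 1.85 for Zfy2. The log2 changes were 1.75 (SE 0.19) for Zfy1 and 2.02 (SE 0.25) for Zfy2 in mutants, and 0.62 (SE 0.19) and 0.82 (SE 0.25) in non-mutants. In this step limma called 12.1% of all rows in mutants (6.21% higher and 5.89% lower) and 21.8% in non-mutants (8.88% higher and 13% lower). For Zfy1 and Zfy2 these values are a description, as they share the 16 dpp libraries that led to the choice of the genes. By group mean both genes were at their highest at 16 dpp in either genotype, although single non-mutant libraries overlapped for Zfy2, with up to 5.06 TPM at 12 dpp and from 4.95 TPM at 16 dpp.

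By the mean of the summed level both groups of a later age ranked above both groups of an earlier one. Mutants ranked above non-mutants at 8 and 16 dpp. At 12 dpp the means were close, and their order turned without any one of 7 libraries. The means were 1.61 TPM in mutants and 1.03 TPM in non-mutants at 8 dpp, 6.45 TPM in mutants and 6.398 TPM in non-mutants at 12 dpp, and 29.03 TPM in mutants and 11.3 TPM in non-mutants at 16 dpp. Neighbours of the same age overlapped at 8 and 12 dpp and did not at 16 dpp. The lowest mutant at 12 dpp, with 2.43 TPM, was below the highest mutant at 8 dpp, with 2.77 TPM. The mutants at 12 dpp, up to 8.58 TPM, and the non-mutants at 16 dpp, from 10.33 TPM, did not overlap. The mean in mutants at 16 dpp was 4.54 times that in non-mutants at 12 dpp.

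The genes varied together. Across all 30 libraries the log2(TPM + 1) values of Zfy1 and Zfy2 had a Pearson r of 0.979, and after the mean of each of the 6 groups was taken away r was 0.755. These are descriptions over libraries that share ages and litters, and over copies that share reads. Both genes exceeded 1 TPM, the level used as a filter, in all libraries of 12 and 16 dpp, so both passed without the mutants at 16 dpp. In all, Zfy1 did so in 22 of 30 libraries and Zfy2 in 21.

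The share of the summed level listed under Zfy2 was not constant. At 8 dpp it was 44.5 ± 7.11% in mutants and 28.5 ± 9.97% in non-mutants (SD, n = 5 each), a difference of 16.1 percentage points (two-sided exact permutation test, p = 0.0159, adjusted p = 0.0423). At 12 dpp it was 51.8 ± 5.23% in mutants and 47.3 ± 11.9% in non-mutants (exact p = 0.460, adjusted p = 0.526). At 16 dpp it was 56.6 ± 2.54% in mutants and 52.3 ± 3.22% in non-mutants, given without a test. From 8 to 12 dpp the share rose in non-mutants by 18.8 points (exact p = 0.0238, adjusted p = 0.0476). In mutants the change of 7.22 points did not pass (exact p = 0.0952, adjusted p = 0.152), and whether the change differs between genotypes was not tested.

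These calls on the share rest on levels of at most 1.64 TPM at 8 dpp, where the depth behind each value is unknown. The test at 8 dpp did not keep litter mates together, and no test on pairs was run. Mutant replicates 2 and 3 and +/+ replicates 2 and 3 of 8 dpp share a litter, and were paired only by library number. Mutant replicate 2 had a lower share than the +/+ litter mate it was paired with, 37.1% against 40.6%. Its other +/+ litter mate, replicate 3, had 33.1%, so this exception depends on the pairing. In the other pairs of 8 dpp the mutant had the higher share. The call at 8 dpp was lost without +/- replicate 1 or 2, with differences of 15.2 and 12.4 points and an adjusted p of 0.0952. It was also lost without +/+ replicate 1 (16.4 points) or mutant replicates 1, 3, 4 or 5 (17.02, 14.8, 13.7 and 16.99 points), each with an adjusted p of 0.0635. The call on the non-mutant step was lost without any one of 12 of the 20 libraries of 8 and 12 dpp, where it lay between 15.01 and 19.998 points. They were +/- replicates 1 and 2, +/+ replicates 1 and 3 and mutant replicates 1, 3, 4 and 5 at 8 dpp, with +/- replicates 1, 3 and 4 and +/+ replicate 1 at 12 dpp. The mutant libraries enter that result through the adjustment over the 8 tests.

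**Figure D3:**
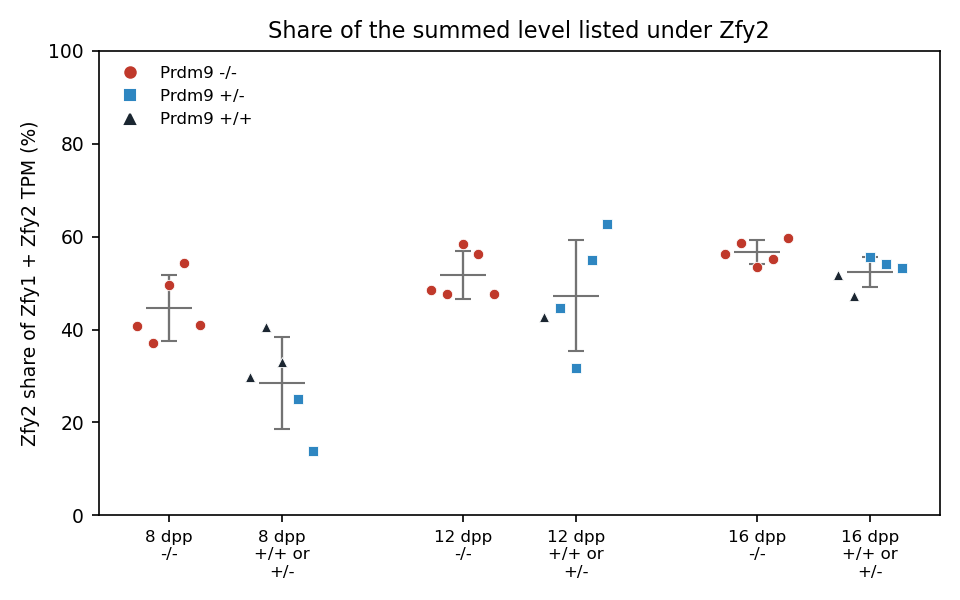
Share of the summed Zfy1 and Zfy2 level listed under Zfy2 (percent) in each library, by age and Prdm9 genotype, with the mean and SD of each group of 5 in grey. The non-mutants at 8 dpp lie lowest, between 13.8 and 40.6%, and both groups lie between 47.1 and 59.7% at 16 dpp.

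No difference between carriers of 1 and of 2 working Prdm9 alleles passed the test. Over the 15 non-mutant libraries with age in the fit, heterozygotes differed from wild-type libraries by 0.050 (SE 0.12) for Zfy1 (limma adjusted p = 0.896) and by 0.11 (SE 0.21) for Zfy2 (limma adjusted p = 0.858). Limma called 0% of 18668 rows there, with 1972 at an unadjusted p under 0.05. No litter gave both +/- and +/+ libraries, so in this comparison genotype and litter cannot be told apart. In addition, +/+ replicates 2 and 3 of 8 dpp came from the same litter. At 16 dpp Zfy1 averaged 5.44 ± 0.104 TPM in +/- (SD, n = 3) and 5.27 ± 0.396 TPM in +/+ libraries (SD, n = 2). Zfy2 averaged 6.46 ± 0.312 TPM in +/- and 5.14 ± 0.276 TPM in +/+ libraries. All 3 +/- libraries had more Zfy2 than both +/+ libraries at that age. At 8 dpp the order was the other way, with Zfy2 at 0.15 ± 0.0141 TPM in +/- (SD, n = 2) and 0.407 ± 0.186 TPM in +/+ libraries (SD, n = 3).

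Of the relatives, Zfx (ENSMUSG00000079509, chromosome X, 94074631 to 94123702, GRCm38) was far more abundant at 8 dpp, with 29.8 ± 7.14 TPM in mutants and 28.9 ± 2.30 TPM in non-mutants (SD, n = 5 each). At 16 dpp it had 29.87, 31.11, 24.05, 35.53 and 26.02 TPM in mutants, against 26.68, 25.18 and 24.43 TPM in +/- and 26.19 and 19.65 TPM in +/+ libraries. The groups overlapped, and the log2 difference of 0.25 (SE 0.12) did not pass (limma adjusted p = 0.381). From 12 to 16 dpp the change of Zfx on the log2 scale was 0.014 in mutants (limma adjusted p = 0.963) and -0.32 in non-mutants (SE 0.12, limma adjusted p = 0.0485). The call in non-mutants was lost with median-ratio scaling (-0.22, adjusted p = 0.158) and quantile normalization (-0.30, adjusted p = 0.0609), with no filter (adjusted p = 0.0866), with +/- or +/+ libraries alone (adjusted p = 0.220 and 0.514), without the 12 dpp pair whose Prdm9 goes against its labels (adjusted p = 0.117) and without any one of 21 of the 30 libraries (-0.36 to -0.25 over all 30). The summed Zfy level was 0.0578 of the Zfx level in mutants and 0.0367 in non-mutants at 8 dpp. At 16 dpp it was 0.992 of it in mutants and 0.467 in non-mutants, all as means of the ratio of TPM per library.

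Zfa-ps (ENSMUSG00000049576, chromosome 10, 52542320 to 52545739, GRCm38) exceeded 1 TPM only in the 5 non-mutants of 16 dpp, and so passed the filter only through them. Its values are therefore given without a test. At 16 dpp it had 0.17, 0.84, 0.37, 0.14 and 0.5 TPM in mutants, against 1.68, 3.55 and 3.31 TPM in +/- and 2.25 and 1.99 TPM in +/+ libraries. Every mutant lay below every non-mutant at that age, with a log2 difference of -1.33 (SE 0.16). At 12 dpp it had 0.32 to 0.85 TPM in mutants and 0.09 to 0.52 TPM in non-mutants.

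Other genes of the Y chromosome set the pair beside its neighbours. Of 11 such genes in the table, 7 passed the filter, and Sry, Ssty1, Ssty2 and Srsy were listed at 0 in every library. At 16 dpp limma called 0 of the 7 and 3.26% of all rows, with a median log2 difference of 0.24 against 0.074 over all rows. The nearest to a call was Usp9y, a deubiquitinase gene, with 12.4 ± 2.79 TPM in mutants and 7.51 ± 1.51 TPM in non-mutants (SD, n = 5 each; log2 difference 0.64, SE 0.19, limma adjusted p = 0.0638). Usp9y passed with the litter as a block (adjusted p = 0.0447), with quantile normalization (0.61, adjusted p = 0.0492) and without any one of 4 libraries: mutant replicate 1 or +/+ replicate 1 of 8 dpp (adjusted p = 0.0307 and 0.0441), and mutant replicate 3 or +/- replicate 1 of 16 dpp (adjusted p = 0.0237 and 0.0418). The others were Eif2s3y (0.27), a translation initiation factor; Rbmy (0.26), an RNA-binding protein of germ cells encoded by many copies; Uba1y (0.24), a ubiquitin-activating enzyme; Ddx3y (0.20), an RNA helicase; Uty (0.14), a relative of histone demethylases; and Kdm5d (0.069, and -0.0063 with median-ratio scaling), a histone demethylase. Their adjusted p-values by limma ran from 0.179 to 0.877. The difference between Zfy1 or Zfy2 and these genes was not itself tested.

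In the step from 8 to 12 dpp 3 of the 7 rose with the pair in either genotype. Of all rows, 17.5% were called higher in mutants and 20.3% in non-mutants in that step. Usp9y rose by 1.04 in mutants and 1.17 in non-mutants on the log2 scale (limma adjusted p = 0.000127 in mutants and 2.984e-05 in non-mutants). Rbmy rose by 0.81 in mutants and 1.12 in non-mutants (limma adjusted p = 0.0123 and 0.000844), and Uba1y rose by 0.54 and 0.65 (limma adjusted p = 0.00656 and 0.00126). In non-mutants Rbmy and Uba1y no longer passed with +/+ libraries alone (adjusted p = 0.236 and 0.215), nor did Uba1y with +/- libraries alone (adjusted p = 0.0566). Ddx3y, Uty, Eif2s3y and Kdm5d did not pass, with changes of -0.20 to 0.19. Without mutant replicate 1 of 8 dpp, the fall of Ddx3y in mutants passed (-0.28, limma adjusted p = 0.0298). From 12 to 16 dpp Usp9y rose by 0.67 in mutants (limma adjusted p = 0.0196), where its change in non-mutants was 0.017 (adjusted p = 0.964). That call was lost without mutant replicates 1 or 4 of 12 dpp or 2 or 5 of 16 dpp, where the change was 0.59 to 0.62 (adjusted p = 0.0544 to 0.0645). With only the groups compared in the fit, Rbmy also passed as higher in mutants in this step (0.47, limma adjusted p = 0.0497). Kdm5d had a change of -0.34 in mutants (limma adjusted p = 0.0840) and of -0.40 in non-mutants (limma adjusted p = 0.0265). With quantile normalization the change in mutants passed as well (-0.37, adjusted p = 0.0327). The call in non-mutants was lost with median-ratio scaling (-0.30, adjusted p = 0.0641), with +/- or +/+ libraries alone (adjusted p = 0.151 and 0.483) and without +/- replicates 2 or 3 of 12 dpp, +/- replicate 3 or +/+ replicate 2 of 16 dpp (-0.38 to -0.34, adjusted p = 0.0575 to 0.0813).

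**Figure D4:**
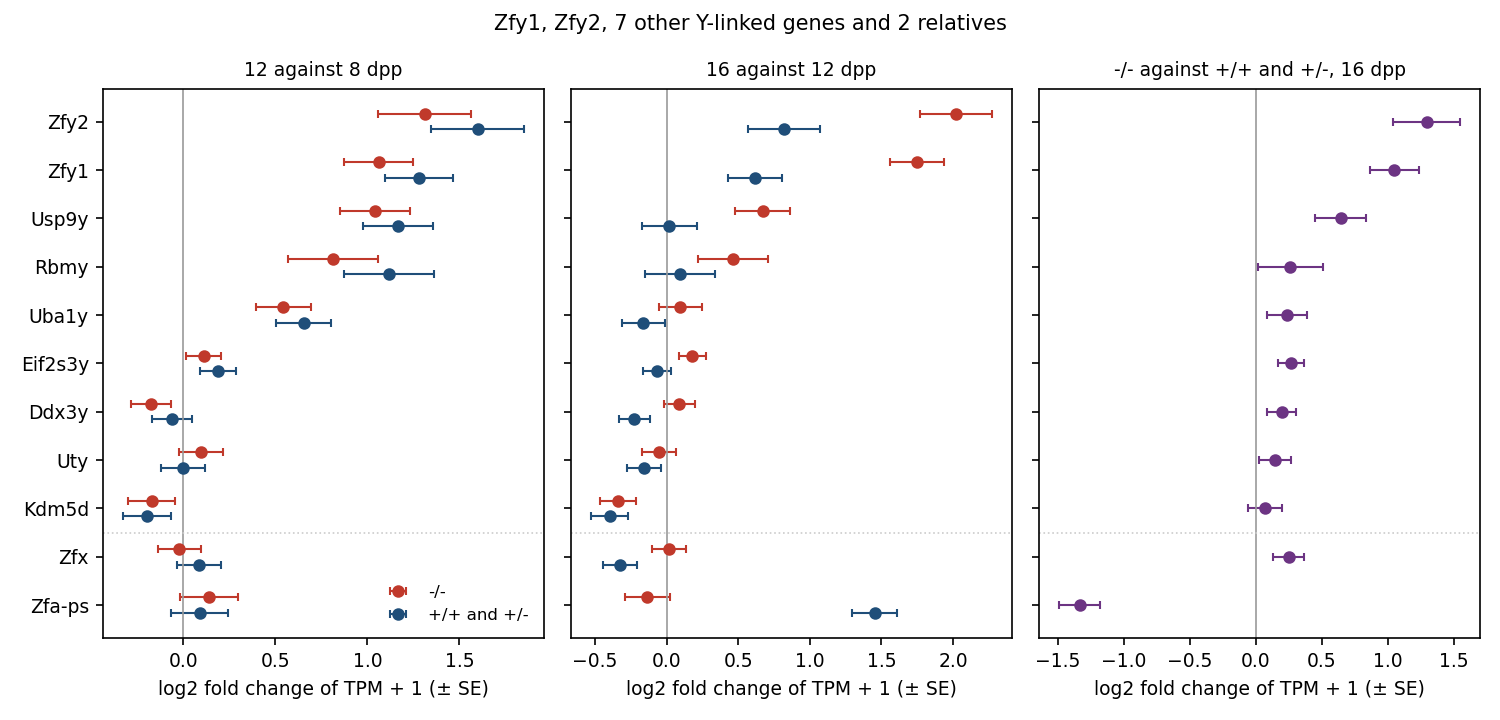
Log2 fold change of TPM + 1 with its SE for Zfy2, Zfy1, 7 other Y-linked genes and, under the dotted line, the relatives Zfx and Zfa-ps; the steps between ages are shown for mutants (red, upper) and non-mutants (blue, lower) and the right panel gives mutants against non-mutants at 16 dpp. Zfy2 and Zfy1 have the highest values of the genes shown in the right panel (1.29 and 1.05), where Zfa-ps is at -1.33. The pair was picked for being higher in this contrast, so its place there was favoured in advance and is a description.

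The genes whose pattern over the 30 libraries was most like that of the pair all lay on the X chromosome. For Zfy1 they were Pet2 (Pearson r = 0.977), Cldn34b1 (0.960), Ccnb3 (0.957), Scml1 (0.956) and Rpgr (0.954), and for Zfy2 they were Pet2 (0.966), Scml1 (0.950), Rpgr (0.949), Mageb17-ps (0.948) and Cldn34b1 (0.947). Of the 13950 named rows compared, 4.16% are X-linked. These 6 genes were picked by values that include the 16 dpp libraries, so their levels are given without a test. Over the 20 libraries of 8 and 12 dpp alone, r was 0.902 to 0.969 for the 5 genes with Zfy1 and 0.879 to 0.930 for those with Zfy2. These 20 libraries also entered the ranking, so these r are no separate check. They hold the step from 8 to 12 dpp, in which limma called 17.5% of all rows higher in mutants and 20.3% in non-mutants. Pet2 had 37.2 ± 5.52 TPM in mutants and 17.4 ± 1.49 TPM in non-mutants at 16 dpp, and 13.2 ± 3.36 and 13.99 ± 3.23 TPM at 12 dpp (SD, n = 5 each). Ccnb3, a cyclin of meiotic cells, had 36.4 ± 8.16 TPM in mutants and 16.5 ± 1.85 TPM in non-mutants at 16 dpp. Rpgr, a gene of the photoreceptor cilium, had 19.2 ± 2.01 TPM in mutants and 15.4 ± 1.30 TPM in non-mutants at that age. The r with Zfx was -0.175 for Zfy1 and -0.120 for Zfy2.

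The germ cell stages in the samples moved with age beside the pair. Of 16 leptotene and zygotene markers, 15 rose from 8 to 12 dpp in mutants and 16 in non-mutants, with median log2 changes of 1.60 in mutants and 1.84 in non-mutants. Of all rows, 17.5% were called higher in mutants and 20.3% in non-mutants in that step. From 12 to 16 dpp 8 of the 16 markers rose in mutants and 8 in non-mutants, with medians of 0.72 in mutants and 0.68 in non-mutants. Here 6.21% of all rows were called higher in mutants and 8.88% in non-mutants. At 16 dpp 1 of the 16 was lower in mutants, Prdm9 itself, and 0 were higher, with a median of -0.13. At that age 2.75% of all rows were called lower in mutants and 0.509% higher. The summed level of the 16 markers was 1326 to 1848 TPM in mutants and 1492 to 1949 TPM in non-mutants at 16 dpp. Of 13 pachytene and diplotene markers tested, 10 were lower in mutants at 16 dpp, but 3 of these 10 had passed the filter only through the non-mutants of that age. Of the 10 markers that passed without those libraries, 7 were lower and 0 higher. Their list's summed level was 241 to 299 TPM in mutants and 474 to 1861 TPM in non-mutants. Among the non-mutants at 16 dpp Ldhc, the lactate dehydrogenase of pachytene spermatocytes, ranged from 41.97 to 602.47 TPM. In the same libraries Zfy1 lay between 4.99 and 5.56 TPM and Zfy2 between 4.95 and 6.73 TPM. Ldhc was picked with its values in view. The part of these stage markers in the Zfy values was not tested.

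**Figure D5:**
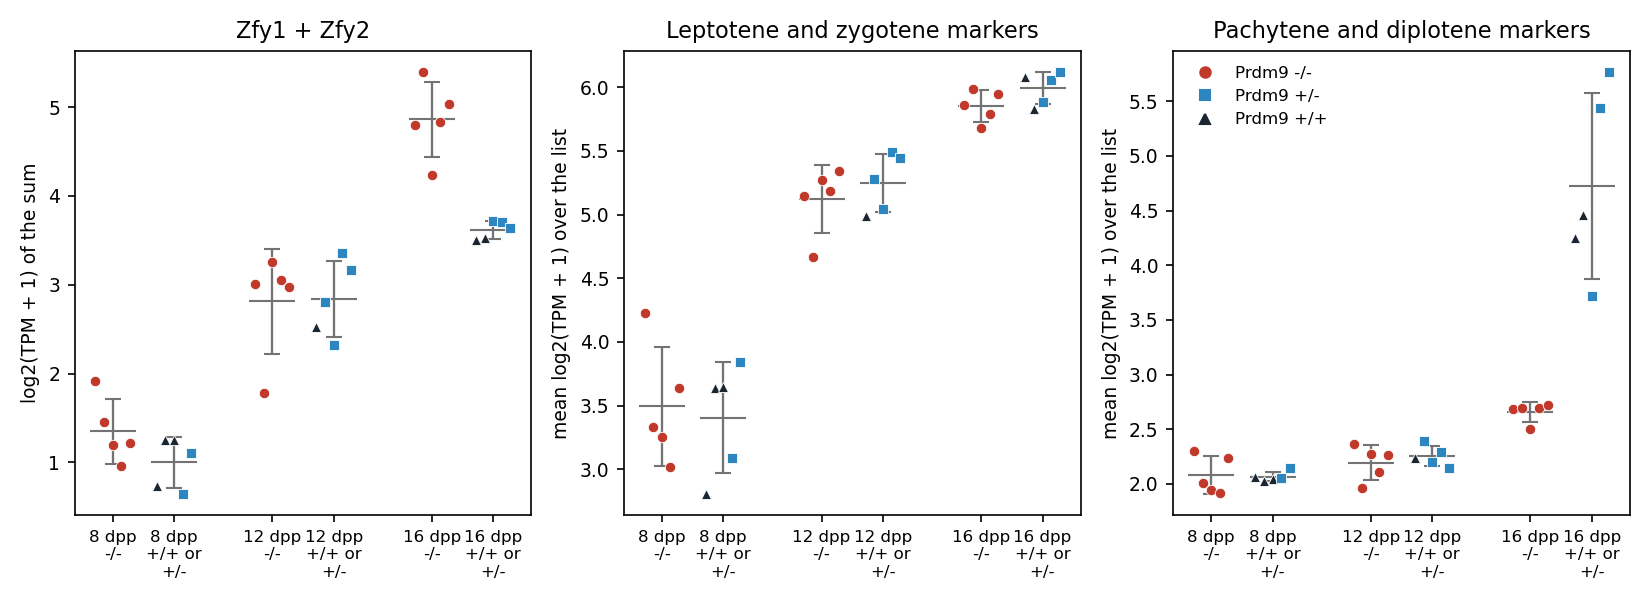
Zfy1 plus Zfy2 (left, log2 of the summed TPM + 1) beside the mean log2(TPM + 1) of 16 leptotene and zygotene markers (centre) and 15 pachytene and diplotene markers (right) in each library, by age and Prdm9 genotype, with group means and SDs in grey. At 16 dpp the mutants are above the non-mutants on the left, overlap with them in the centre and are below them on the right.

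Genes of sex chromosome silencing and of the response to unpaired chromosomes were looked up as the pathway that normally shuts the pair down. Of 20 such genes, 1 was called at 16 dpp, Ube2a, an X-linked ubiquitin-conjugating enzyme, which was higher in mutants by 0.43 on the log2 scale (SE 0.11, limma adjusted p = 0.0290). None was called lower in this fit, and 1 was with median-ratio scaling (0 higher) or against +/- libraries alone (1 higher), while 2 were higher with the litter as a block, fixed or random, and without mutant replicate 1 or 4 of 8 dpp or +/- replicate 1 of 16 dpp. A share of 1 in 20 is near the 3.26% of all rows called at that age. The call on Ube2a was lost with median-ratio scaling (0.35, adjusted p = 0.186), with quantile normalization (0.39, adjusted p = 0.118), with only the groups compared (0.43, adjusted p = 0.115), against +/+ libraries alone (0.32, adjusted p = 0.476) and without mutant replicates 2 or 5 or +/- replicates 2 or 3 of 16 dpp (0.34 to 0.43, adjusted p = 0.0568 to 0.182). The median difference of the 20 was -0.028, against 0.074 over all rows. From 8 to 12 dpp 8 rose and 3 fell in mutants, and 13 rose and 3 fell in non-mutants. Over all rows limma called 17.5% higher and 12.2% lower in mutants, and 20.3% higher and 12.1% lower in non-mutants, so the falls were near the background. With +/+ libraries alone 5 rose and 1 fell in non-mutants. Between 10 and 11 rose and 1 fell there without +/+ replicate 1 or +/- replicate 1 of 8 dpp or +/- replicate 2 of 12 dpp. Among those that rose, Hormad1, a protein of unpaired chromosome axes, rose by 2.11 in mutants and 2.41 in non-mutants (limma adjusted p = 1.47e-06 and 2.326e-07). Atr, the kinase that starts the silencing, rose by 1.26 in mutants and 1.36 in non-mutants (limma adjusted p = 1.075e-07 and 4.485e-08).

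Somatic cells were present in all groups. At 16 dpp 0 of 10 Sertoli cell, 0 of 7 Leydig cell and 0 of 6 macrophage markers were called by limma between mutants and non-mutants. Of all rows, 3.26% were called at that age. With the litter as a block 1 Leydig cell and 1 macrophage marker were called higher in mutants, and 2 Leydig cell markers were called when that block was random. The fits with only the groups compared and against +/- libraries alone each called 1 Leydig cell marker higher, as did those without mutant replicate 2 or 3 of 8 dpp, +/- replicate 2 of 12 dpp or +/+ replicate 2 of 16 dpp. The median log2 differences of the 3 lists were 0.11, 0.69 and 0.46 in that order. The summed Leydig cell level was 170 to 483 TPM in mutants and 105 to 366 TPM in non-mutants, and the summed macrophage level was 69.8 to 132 TPM in mutants and 45.3 to 98.8 TPM in non-mutants. No Sertoli cell, Leydig cell or macrophage marker was at 0 in every library. Their part in the Zfy values was not tested.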

How the data were processed

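Germ cells were enriched from testes by Liberase digestion and washing to remove interstitial cells, and total RNA was purified with QIAzol and RNeasy columns, per the labels' protocols. The authors deposited TPM per gene and library. Per the submitters' processing notes, the tools include RSEM 1.2.8 and Bowtie 1.0.0 and the build is GRCm38 (mm10). Read length and strand use are not given in the sources used here, and the table is held in part, with 3.23 to 3.95% of each library's TPM total outside it. Depth is unknown and allows no counting interval, so the number of libraries and their spread set the precision.

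Symbols came from GENCODE M21, which matched 37709 of 38906 Ensembl rows. Rows that exceeded 1 TPM in 5 or more libraries (20021) were fitted as log2(TPM + 1) by limma with a mean-variance trend (version 3.58.1 under R 4.3.3). A single fit held 6 groups, with Benjamini-Hochberg adjustment over all rows and calls under 0.05. Heterozygotes were set against wild-type libraries in a fit over 18668 rows with age as a factor. The sum and the Zfy2 share were compared with two-sided exact permutation tests (Python 3.11.15), adjusted over 8 tests. Their splits did not keep litter mates together. The fit was tested on simulated data. The members, lists and tests were chosen with earlier results of these data known.

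Genes named are Zfy1, Zfy2, Zfx, Zfa-ps, Prdm9, the Y-linked list, the 5 named rows most correlated with each member, and up to 4 members with the smallest adjusted p of the other lists. Ldhc was chosen after its values were seen. Zfx, Ube2a, Hormad1, Atr and the Y-linked genes were run under the same alternatives. Litters were read from a number in the column names, and pairs from consecutive library numbers in the table's header. Litter mates deviated together from their group means (r 0.0727 to 0.39 over 15 pairs, 13 over 0.1, median 0.24, against a median of -0.0836 for other litters). Litter was accordingly used as a block in an alternative fit. Other alternatives changed the pseudocount, filter, scaling, libraries fitted and control genotype, summed the copies and left out each library or the pair with Prdm9 against its labels.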

Additional observations from a re-analysis of the deposited data

Results flagged for a closer look

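Zfy1, Zfy2, their sum and the Zfy2 share were examined in each of the 6 groups, 24 sets of 5 values. In 3 of these sets a library lay far from the others by Dixon's criterion, where chance flags about 1 in 20. The sets overlap, and the flags on Zfy1 and on the sum fell on the same library. Zfy1 was at 1.27 TPM in mutant replicate 2 at 12 dpp, while the other mutants of that age had 3.2 to 3.64 TPM. The summed level of Zfy1 and Zfy2 in that library was 2.43 TPM, against 6.83 to 8.58 TPM in the others. Its +/- litter mate, replicate 2, had the lowest sum of the non-mutants at 12 dpp, with 4.01 TPM. The mutant library also had the lowest mean log2(TPM + 1) of the leptotene and zygotene markers among the mutants of 12 dpp. It was 4.66 there, against 5.15 to 5.34 in the others. Zfy2 was at 1.13 TPM in mutant replicate 1 at 8 dpp, while the other mutants had 0.51 to 0.65 TPM. The same library was the highest of its group for Zfy1, with 1.64 TPM. It was also the highest for the mean of the leptotene and zygotene markers, with 4.23 against 3.02 to 3.64 in the other mutants. The part of germ cell stage in these flags was not tested.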

How the results depend on the processing

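The log2 differences between mutants and non-mutants at 16 dpp lay between 0.97 and 1.24 for Zfy1 and between 1.18 and 1.46 for Zfy2 under the 12 alternatives that left no single library out. Among these is the fit with the copies summed, where the sum stood in for each gene and gave the 1.24. The calls on the steps from 8 to 12 dpp kept their side of the threshold except with +/+ libraries alone in non-mutants (Zfy1 1.11, adjusted p = 0.0586; Zfy2 1.12, adjusted p = 0.158). With +/+ libraries alone the Zfy1 difference at 12 dpp turned to 0.0705 and the Zfy2 difference of the steps to 0.19. With +/- libraries alone the Zfy2 difference at 12 dpp turned to -0.0017. The difference of the summed copies, set in place of Zfy2, was -0.0208 at that age. Heterozygotes against wild-type turned to -0.0917 for Zfy2 with a pseudocount of 0.1, and for Zfy1 to -0.0233 with median-ratio scaling and -0.0397 with quantile normalization. The mutant step of Zfy1 from 12 to 16 dpp moved to 2.05 with a pseudocount of 0.1. The same step of the summed copies, set in place of Zfy1, was also 2.05. A pseudocount of 0.1 gave Zfy2 a difference of 1.05 at 8 dpp (adjusted p = 1). The cause of these shifts was not tested.

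With medians in place of means the 4 calls of the exact tests were lost (adjusted p = 0.0952 each): 5.75 TPM in mutants and 4.83 TPM in non-mutants for the sum from 8 to 12 dpp, and 11.1 points at 8 dpp and 14.7 points for the non-mutant step of the share. Without the pair with Prdm9 against its labels that last step was 15.01 points (adjusted p = 0.0952).

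With the litter as a replicate block the differences at 16 dpp were 1.05 (SE 0.17) for Zfy1 and 1.29 (SE 0.19) for Zfy2, and no call on the pair changed; the count of rows called at 16 dpp was 1037, or 1103 with the litter as a random effect, against 653. Litters are nested in age, so age steps allow only the random block, which was not run for heterozygotes against wild-type. With only the groups compared in the fit, Zfy1 and Zfy2 failed the filter at 8 dpp. The count at 16 dpp was 1181 without a filter, 405 with only the groups compared and 194 against +/+ libraries alone. In non-mutants the steps gave 1405 and 262 calls with +/+ libraries alone and 3501 and 2815 with +/- alone, against 6497 and 4372. With +/+ libraries alone 1 of 7 Y-linked genes rose from 8 to 12 dpp in non-mutants, in place of 3, and 1 in place of 8 leptotene and zygotene markers rose from 12 to 16 dpp; in mutants 13 in place of 8 rose with only the groups compared.

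Without single libraries the log2 differences ran from 0.010 to 0.23 (Zfy1) and 0.29 to 0.45 (Zfy2) at 8 dpp, and from -0.15 to 0.11 and -0.11 to 0.33 at 12 dpp. Heterozygotes against wild-type ran from -0.0031 to 0.13 for Zfy1 and from -0.0008 to 0.18 for Zfy2. The sum at 12 dpp ran from -0.547 to 1.05 TPM, the mutant step of the sum from 4.30 to 5.84 TPM and the non-mutant step from 4.66 to 5.96 TPM. The share ran from 12.4 to 19.1 points at 8 dpp and from 15.01 to 22.7 points for the non-mutant step. The rows called at 16 dpp ran from 366 to 781.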
